A study of Mus musculus with 45 samples.

Results

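Myostatin (Mstn), the activin subunits, their receptors and the follistatins were followed as a set of 10 genes across 45 mouse bulk RNA-seq libraries. The set holds 4 ligand genes (Mstn, Gdf11, Inhba, Inhbb), 3 receptor genes (Acvr1b, Acvr2a, Acvr2b) and 3 genes of the follistatin family (Fst, Fstl3, Fstl1), out of 35675 genes to which reads were summed. The genes were taken from a list of names, and Mstn was chosen by its counts in the time course, where F/R/C libraries were high on each of the days. Those values are given as a description with no test, and counts of members in comparisons that use those libraries are over the other 9 genes. All 10 genes passed the filter on low counts.

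Every library carried the genotype Tg:Pax7-nGFP/C57BL6;DBA2, a nuclear GFP reporter of Pax7, the transcription factor of muscle stem cells. Mouse embryonic fibroblasts (MEFs) with a doxycycline (Dox)-inducible MyoD, the transcription factor that turns fibroblasts into muscle, were profiled untreated, after 2, 4, 6, 8 and 10 days of Dox alone (MyoD alone; labelled myotubes), and after the same days of Dox with F/R/C (labelled muscle fibers and progenitor cells). The labels do not spell out F/R/C; in published work on such cells the letters stand for forskolin, RepSox, an inhibitor of TGF-beta type I receptors, and a GSK3 inhibitor. The other groups were bulk induced myogenic progenitor cells (iMPCs), described as clones that no longer need Dox and were kept in F/R/C medium after 13 days of Dox with F/R/C, iMPCs sorted for Pax7-GFP, untreated bulk primary myoblasts from skeletal muscle, and sorted Pax7-GFP-positive myoblasts. Each of the 15 groups had 3 libraries. The labels do not say whether these came from separate embryos, animals or cultures, so p-values measure the spread between these libraries, which may be technical.

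Myostatin is secreted mainly by skeletal muscle and limits muscle mass, and GDF11 is its closest relative. Activins are dimers of the inhibin beta subunits encoded by Inhba and Inhbb. These ligands bind a type II receptor (ACVR2A or ACVR2B), which then engages a type I receptor such as ACVR1B (ALK4), and the receptors phosphorylate SMAD2 and SMAD3. Follistatin (Fst) and follistatin-like 3 (Fstl3) bind and block activins and myostatin outside the cell. Fstl1 shares the family's name and domain, but is not an established antagonist of myostatin.

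Promoters of the ligand genes with the clearest differences and of Fstl3 are shown because MyoD, induced in both arms of the time course, binds E-boxes. Mstn and Gdf11 were higher with F/R/C, and Inhba and Fstl3 were lower. RefSeq promoter sequences (GRCm38.p6) matched 9 of the 10 genes, all but Fst. Each line gives the 250 bases before the annotated start in the direction of the gene, with E-boxes (CANNTG) in capitals. The windows are chr1:53061390-53061639 (+ strand) for Mstn, chr10:128891719-128891968 (- strand) for Gdf11, chr13:16011601-16011850 (+ strand) for Inhba and chr10:79777024-79777273 (+ strand) for Fstl3.

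Mstn: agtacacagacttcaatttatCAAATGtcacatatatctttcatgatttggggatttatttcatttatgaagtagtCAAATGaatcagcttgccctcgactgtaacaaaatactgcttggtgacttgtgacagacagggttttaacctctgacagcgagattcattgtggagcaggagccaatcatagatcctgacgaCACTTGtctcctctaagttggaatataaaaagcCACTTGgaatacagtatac

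Gdf11: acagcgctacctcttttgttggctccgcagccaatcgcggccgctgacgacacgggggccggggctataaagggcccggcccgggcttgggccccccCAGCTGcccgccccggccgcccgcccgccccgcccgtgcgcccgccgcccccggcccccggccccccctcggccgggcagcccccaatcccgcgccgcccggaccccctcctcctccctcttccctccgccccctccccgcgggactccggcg

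Inhba: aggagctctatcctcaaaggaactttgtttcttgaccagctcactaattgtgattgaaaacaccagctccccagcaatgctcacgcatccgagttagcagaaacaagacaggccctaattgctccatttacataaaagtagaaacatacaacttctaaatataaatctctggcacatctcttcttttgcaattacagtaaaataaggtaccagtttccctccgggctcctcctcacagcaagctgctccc

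Fstl3: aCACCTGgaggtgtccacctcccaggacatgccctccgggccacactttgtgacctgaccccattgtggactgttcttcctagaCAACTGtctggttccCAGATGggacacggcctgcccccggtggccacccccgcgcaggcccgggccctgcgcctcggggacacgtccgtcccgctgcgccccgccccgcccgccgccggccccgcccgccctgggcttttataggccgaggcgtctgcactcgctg

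The Mstn window held 4 E-boxes, which began 229, 174, 52 and 19 bases before the start, and a TATAAA motif 29 bases before it. Fstl3 held 3 E-boxes and Gdf11 and Acvr1b held 1 each; Inhba, Inhbb, Acvr2a, Acvr2b and Fstl1 held none. At least 1 E-box was found in 66.2% of 32851 promoter windows of this length, with a mean of 1.16 per window, so its presence alone sets no gene apart. The E-box form with a GC core, CAGCTG, was found in the Gdf11 window only, not in that of Mstn, and in 13% of all windows. The SMAD box CAGAC, searched on both strands, was found in the windows of Mstn (2), Fstl3 (2), Acvr2a (1) and Acvr2b (1), and in 42.2% of all windows. In the Fstl3 window the CAGAC match 161 bases before the start shares a base with the E-box that begins 166 bases before it. A match is only a match of letters, and no binding was measured.

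Library totals ran from 15.6 to 36.3 M reads. Levels are in CPM, a gene's reads scaled to one common library size with TMM factors. Summed markers of differentiated muscle (9 genes) were 51.7 to 149 CPM in MEFs and at least 8452 CPM in every treated time-course library. In the time course they did not separate the treatments, at 8452 to 38004 CPM with MyoD alone and 11080 to 40312 CPM with F/R/C. Markers of muscle progenitors (5 genes) did: on days 4 to 10 every F/R/C library was above every MyoD-alone library of its day, with 2054 to 2550 against 1108 to 1774 CPM on day 4 and 1445 to 1556 against 555 to 1271 CPM on day 10. The same held for markers of dividing cells (5 genes), at 189 to 295 against 46.7 to 141 CPM on day 4 and 341 to 755 against 28.4 to 281 CPM on day 10. On day 2 the arms overlapped in both lists. With MyoD alone, 3 of the 5 progenitor genes exceeded 3 reads in any library on days 2 to 8, and 4 did on day 10. Myf5 had 0 reads with MyoD alone on days 2, 4, 6 and 10. With F/R/C all 5 exceeded 3 reads on days 4 to 10, but Pax7 and Myf5 had 0 reads on day 2. The sum with MyoD alone is therefore no measure of Myf5. Summed fibroblast markers (10 genes) were 10398 to 14419 CPM in MEFs, 2980 to 11263 CPM with MyoD alone and 1041 to 5824 CPM with F/R/C. The bulk myoblast replicate 3 stood apart with 1051 CPM of differentiation markers, against 29803 and 15747 CPM in replicates 1 and 2. The lists for blood, endothelium, glia, epithelium and adipocytes summed to at most 94.9 CPM in any library. In these bulk libraries, fewer cells that express a gene and less RNA per cell cannot be told apart.

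Mstn was the member with the widest range. In MEFs it had 3.52, 0.0465 and 0.0634 CPM in replicates 1, 2 and 3, the last 2 values being 1 read each. With MyoD alone it had 0.827, 2.75 and 0.539 CPM on day 2, and 2.87, 6.39 and 1.85 CPM on day 10. The F/R/C libraries of day 2 had 189, 310 and 234 CPM. Every F/R/C library therefore stood far above every MyoD-alone library of the same day, from the first time point on.

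On day 4 Mstn had 681, 906 and 537 CPM with F/R/C, against 2.84, 3.05 and 1.34 CPM with MyoD alone. On day 6 it had 626, 590 and 511 CPM with F/R/C, against 1.71, 5.68 and 1.66 CPM. On day 8 it had 363, 465 and 427 CPM with F/R/C, against 2.15, 5.70 and 0.905 CPM, and on day 10 the F/R/C values were 340, 419 and 359 CPM. The difference, as log2 fold change ± SE, was 7.51 ± 1.15 on day 2, 8.19 ± 1.17 on day 4, 7.57 ± 1.13 on day 6, 7.17 ± 1.12 on day 8 and 6.67 ± 1.09 on day 10. It chose the gene and is given with no test. Differentiation markers overlapped between the arms, whereas markers of muscle progenitors and of dividing cells were higher with F/R/C from day 4 on, and their part in the difference was not tested.

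In order of the group mean, Mstn was at 708 ± 186 CPM (SD, n = 3) in F/R/C day 4, then 576 ± 58.7 on day 6, 418 ± 51.4 on day 8, 373 ± 41.0 on day 10, 312 ± 61.0 in bulk iMPCs and 244 ± 61.3 in F/R/C day 2. Neighbours in this order overlapped, except day 6 and day 8. A gap without overlap followed, down to bulk myoblasts (37.4 ± 35.4 CPM), sorted iMPCs (34.6 ± 25.4 CPM) and sorted myoblasts (12.9 ± 17.6 CPM), whose libraries overlapped one another. The 5 MyoD-alone groups (1.37 to 3.70 CPM) and MEFs (1.21 CPM) came last and overlapped as well. The transcript Mstn-201 held at least 91.1% of the Mstn TPM (transcript abundance scaled for length) in every group.

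**Figure D1:**
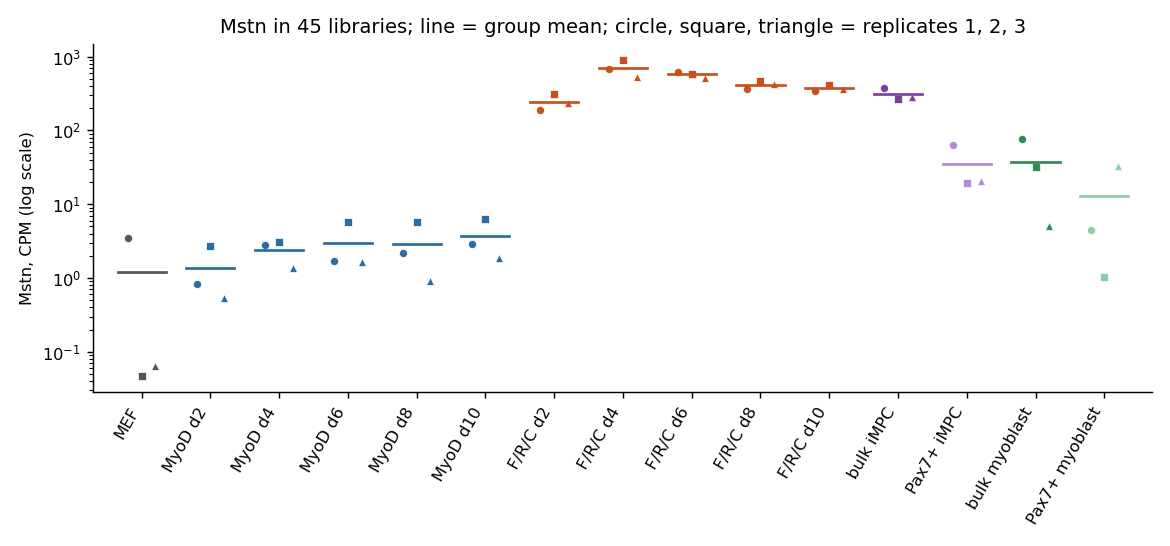
Mstn in CPM (log axis) in each of the 45 libraries, by group; circles, squares and triangles are replicates 1, 2 and 3, and lines are group means. All F/R/C libraries of the time course lie between 189 and 906 CPM and all MyoD-alone libraries between 0.539 and 6.39 CPM.

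Over the average of the 5 days, 5 of the other 9 genes were called between F/R/C and MyoD alone (adjusted p under 0.05 and a log2 fold change of at least 1 in size, edgeR). Gdf11 and Inhbb were higher with F/R/C, and Inhba, Fst and Fstl3 were lower. Of all 17325 genes tested, 22.1% were called, 11.6% higher and 10.5% lower. The members' median log2 fold change was -0.65, against -0.03 over all genes. None of these 5 calls was lost under any alternative tried, leave-outs included. Dropping the minimum fold added Acvr2a (0.87 ± 0.12, adjusted p = 1.7e-07), Acvr1b (-0.65 ± 0.15, adjusted p = 3.8e-04) and Fstl1 (-0.84 ± 0.23, adjusted p = 2.4e-03), which made 8 of 9. The 22.1% of all genes was counted with the minimum fold, so it is no measure for this count. The share without the minimum is not given here.

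By day, the number of the 9 genes called was 1 on day 2 (4.93% of all genes called), 3 on day 4 (13.2%), 2 on day 6 (15.4%), 4 on day 8 (18.7%) and 6 on day 10 (23.3%). Fstl3 was called on each of the 5 days and Gdf11 on days 4 to 10. The labels give no pairing, but libraries with the same replicate number deviated alike in the 2 arms on days 2, 4 and 6. With the replicate as a block, Inhbb was also called on day 2 (adjusted p = 0.0377, against 0.0686 without the block) and Inhba on day 6 (adjusted p = 0.0329, against 0.102). That block shares its replicate effect with MEFs and iMPCs, where such a likeness did not hold in every pair. On day 6, Inhba was also called without F/R/C replicate 1 (-2.41, adjusted p = 0.0306) and Acvr2a without MyoD-alone replicate 2 (1.08, adjusted p = 0.0121).

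**Figure D2:**
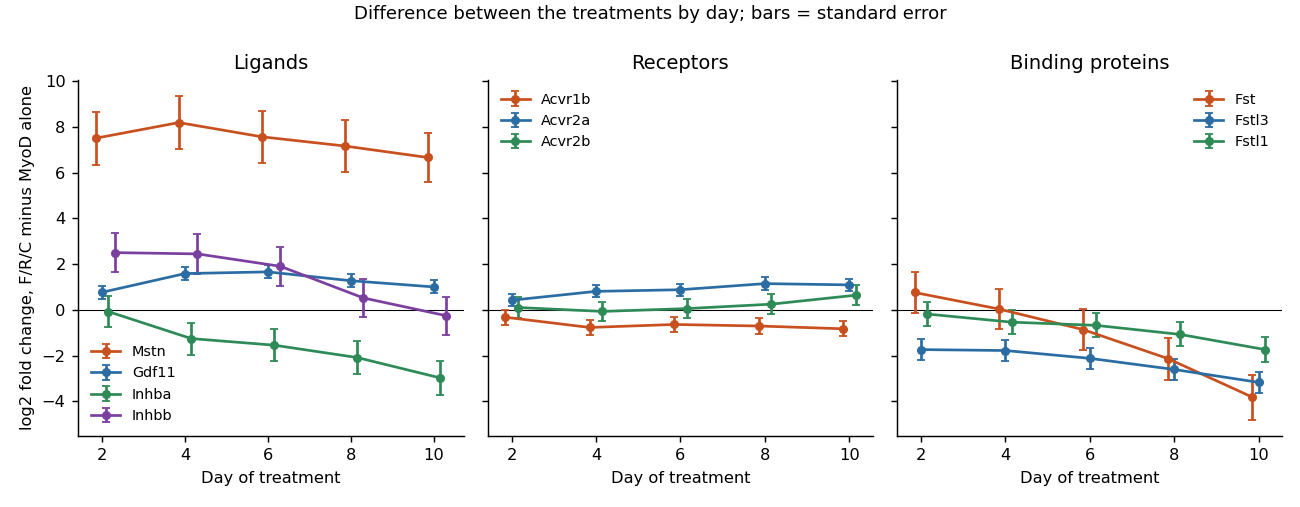
Log2 fold change between F/R/C and MyoD alone on each day for ligands, receptors and binding proteins; points are edgeR estimates and bars are standard errors. Mstn, shown as a description, stays between 6.67 and 8.19, Gdf11 is above 0 throughout, and Inhba, Fst and Fstl3 reach -2.97, -3.81 and -3.17 on day 10.

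Gdf11, the closest relative of Mstn, differed in the same direction over a far narrower range. On day 6 it had 74.0, 79.1 and 81.0 CPM with F/R/C and 28.8, 20.4 and 24.6 CPM with MyoD alone. On day 10 it had 61.1, 50.2 and 68.1 CPM with F/R/C and 28.9, 21.7 and 38.7 CPM with MyoD alone. The arms did not overlap on any of the 5 days, including day 2, where the gene was not called (0.77 ± 0.28, adjusted p = 0.0883). The average log2 fold change was 1.26 ± 0.13 (adjusted p = 5.0e-10). MEFs lay between the arms, at 41.5, 39.5 and 41.6 CPM. Leaving out MyoD-alone replicate 2 or F/R/C replicate 1 put the value of day 10 just under the minimum fold, at 0.93 and 0.99.

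Inhba encodes the subunit of activin A. On day 2 it had 221, 122 and 140 CPM with F/R/C and 230, 120 and 158 CPM with MyoD alone, so the groups overlapped. On day 10 it had 61.5, 17.5 and 33.3 CPM with F/R/C and 432, 229 and 219 CPM with MyoD alone, with no overlap. Replicate 1 was the highest of the 3 in both arms on each day. The average log2 fold change was -1.58 ± 0.32 (adjusted p = 6.2e-05), and the gene was lower on day 8 (-2.08 ± 0.72, adjusted p = 0.0247) and day 10 (-2.97 ± 0.74, adjusted p = 2.0e-03). The call on day 8 was lost without MyoD-alone replicate 1 (adjusted p = 0.125), F/R/C replicate 2 (0.134) or F/R/C replicate 3 (0.139), and with only these groups in the fit (0.0525).

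Inhbb, the subunit of activin B, showed its difference early. On day 2 it had 147, 94.2 and 166 CPM with F/R/C and 29.2, 20.2 and 22.3 CPM with MyoD alone, with no overlap. On day 4 it had 118, 52.2 and 60.9 CPM with F/R/C and 13.2, 7.42 and 21.7 CPM with MyoD alone, again apart. By day 10 the groups overlapped, at 44.8, 12.5 and 41.0 CPM with F/R/C and 28.5, 12.8 and 75.8 CPM with MyoD alone. The average log2 fold change was 1.43 ± 0.38 (adjusted p = 1.4e-03). On single days edgeR without the block called it on day 4 (2.45 ± 0.87, adjusted p = 0.0390). DESeq2 also called it on day 2 (2.51, adjusted p = 0.0222) and day 6 (1.98, adjusted p = 0.0477), as did edgeR with only the groups compared (adjusted p = 1.5e-03 and 0.0406). The call on day 4 was lost in 5 of the 6 leave-outs (adjusted p 0.0515 to 0.148), all but that of F/R/C replicate 2.

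Among the receptors, the type II receptor gene Acvr2a separated the arms best. On day 10 it had 95.2, 118 and 109 CPM with F/R/C and 41.6, 66.6 and 42.5 CPM with MyoD alone. Every F/R/C library was above every MyoD-alone library on all 5 days, and the gene was called on day 8 (1.15 ± 0.27, adjusted p = 1.5e-03) and day 10 (1.10 ± 0.27, adjusted p = 1.7e-03). Acvr2a overlaps Orc4 on the opposite strand, and since it is not stated whether strand was used in quantification, reads of the pair may be mixed. The gene sum of Acvr2a was fractional in 0 libraries, so no split of its reads with another gene was seen. Whether whole reads were given to the wrong gene was not tested.

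The type I receptor gene Acvr1b was not called on any day. It had 59.0, 85.6 and 51.1 CPM with MyoD alone and 35, 41.1 and 39 CPM with F/R/C on day 4. On day 10 F/R/C replicate 3 (46.3 CPM) stood apart from replicates 1 and 2 (14.5 and 16.1 CPM), and MyoD alone had 37.6, 62.4 and 36.3 CPM. Without that library the gene was called on day 10 (-1.42, adjusted p = 8.3e-04), against -0.82 with it, and on day 8 it was called without F/R/C replicate 3 (-1.02, adjusted p = 0.0322). Acvr2b, the other type II receptor gene, did not pass the test between the arms on any day (0.20 ± 0.19 on average, adjusted p = 0.379).

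Fst and Fstl3, the antagonists, were both lower with F/R/C, at different times. Fstl3 had 12.0, 8.82 and 7.46 CPM with F/R/C and 38.6, 30.2 and 25.2 CPM with MyoD alone on day 2. On day 10 it had 4.57, 2.63 and 8.69 CPM with F/R/C and 62.5, 43.5 and 37.4 CPM with MyoD alone. The groups did not overlap on any of the 5 days, and the average log2 fold change was -2.28 ± 0.20 (adjusted p = 3.9e-11). The call on day 2 (-1.73 ± 0.45, adjusted p = 0.0127) was lost without MyoD-alone replicate 1 (0.0572), F/R/C replicate 2 (0.0505) or F/R/C replicate 3 (0.0877).

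Fst had 151, 64.4 and 139 CPM with F/R/C and 93.5, 49.8 and 65.4 CPM with MyoD alone on day 2, where the groups overlapped. On day 8 it had 41.8, 11.4 and 31.2 CPM with F/R/C and 118, 118 and 132 CPM with MyoD alone. The groups did not overlap, but Fst was not called there (-2.13 ± 0.92, adjusted p = 0.0713). It was called with the replicate block (adjusted p = 0.0469) and with only these groups in the fit (0.0147). Over all alternatives the adjusted p reached 0.252. On day 10 it had 13.1, 3.21 and 22.4 CPM with F/R/C and 119, 120 and 306 CPM with MyoD alone. The fold change on day 10 was -3.81 ± 0.98 on the log2 scale (adjusted p = 2.6e-03), and the average was -1.20 ± 0.40 (adjusted p = 9.8e-03). Among Fst transcripts, Fst-205 (1113 bases) held 54.3% to 62.7% of the gene's mean TPM in MEFs and all time-course groups, and Fst-202 (2833 bases) most of the rest, so the split between the isoforms differed little where the total differed much. The quantification estimates this split from shared reads, and no error was computed for it.

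Fstl1 was lower with F/R/C on day 10, at 316, 148 and 302 CPM against 1235, 289 and 1020 CPM with MyoD alone (-1.73 ± 0.53, adjusted p = 9.8e-03). The groups overlapped, since MyoD-alone replicate 2 was as low as the F/R/C libraries. Replicate 2 was also the lowest MyoD-alone library in fibroblast markers on that day (2980 CPM, against 11263 and 9126 CPM); the part of that in the result was not tested. The call was lost without MyoD-alone replicate 1 (adjusted p = 0.0892) or F/R/C replicate 2 (0.085), and with only these groups in the fit (0.0655). Fstl1 was not called on day 8 (-1.07 ± 0.52, adjusted p = 0.113), except with the replicate block (-1.04, adjusted p = 0.043).

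**Figure D3:**
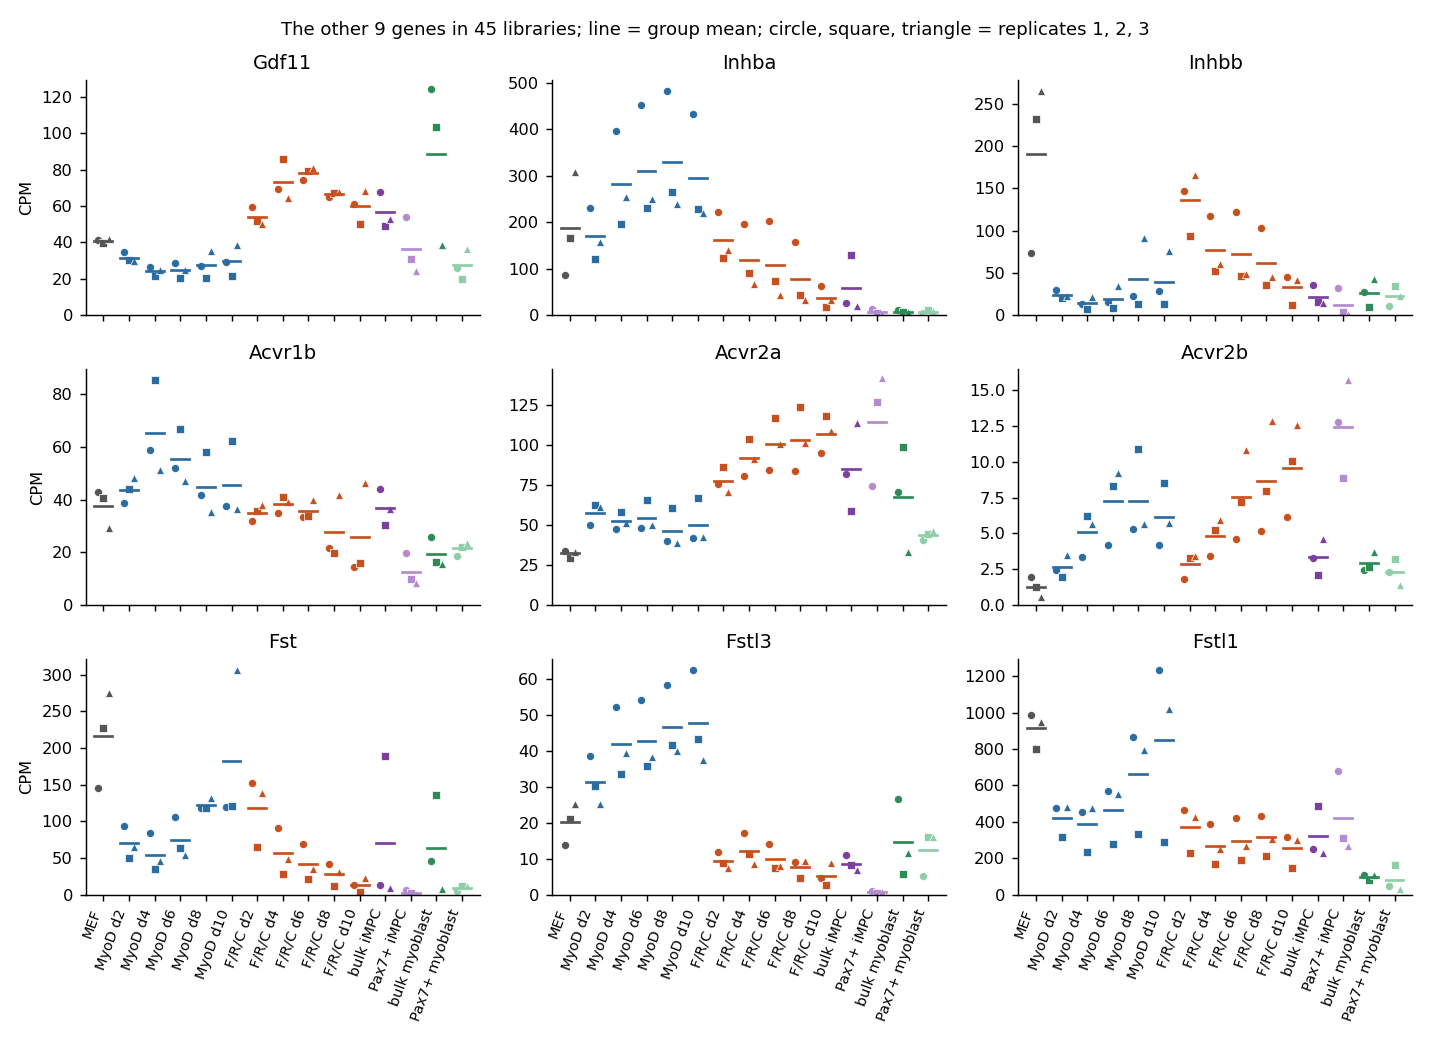
The other 9 genes in CPM (linear axes from 0) in each of the 45 libraries; circles, squares and triangles are replicates 1, 2 and 3, and lines are group means. Gdf11 and Acvr2a are higher and Fstl3 is lower in F/R/C libraries on every day, while Fst and Inhba part from the MyoD-alone libraries with time; bulk iMPC replicate 2 stands out in Fst (189 CPM) and Inhba (128 CPM).

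Levels per length show the balance of ligand and antagonist RNA. On day 10 with F/R/C, Mstn was at 228 ± 20.0 TPM (SD, n = 3) and Fst at 12.5 ± 9.1 TPM, and the ranges over libraries, 214 to 251 and 2.94 to 21.0 TPM, did not overlap. With MyoD alone the order was the reverse, with Mstn at 2.20 ± 1.29 TPM and Fst at 180 ± 121 TPM. Mstn was chosen by its values in these arms, so this order is a description with no test. Inhba stood at 107 ± 46.4 TPM in the MyoD-alone libraries and at 13.0 ± 8.8 TPM in the F/R/C libraries, and Fstl3 at 45.4 ± 13.3 and 5.36 ± 2.86 TPM. The other ligand genes differed less. Gdf11 stood at 12.5 ± 4.3 TPM with MyoD alone and 25.1 ± 3.8 TPM with F/R/C, and Inhbb at 17.1 ± 15.1 and 14.1 ± 7.7 TPM.

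The pathway list holds 30 further genes, of which 24 were tested; Inhbc, Inhbe, Nodal, Gdf3, Tdgf1 and Fstl5 were not. On average over the days, 4 of the 24 were higher with F/R/C and 10 were lower, with a median log2 fold change of -0.76. Of all genes tested, 11.6% were higher and 10.5% lower, with a median of -0.03. Pmepa1, a feedback inhibitor induced by TGF-beta, had 334, 390 and 360 CPM with MyoD alone on day 2 and 23.5, 24.1 and 20.5 CPM with F/R/C (-3.99 ± 0.42, adjusted p = 2.3e-07). Its average over the 5 days was -3.66 ± 0.19 (adjusted p = 1.8e-16). MEFs were between the arms in Pmepa1, at 89.7, 63.4 and 85.1 CPM.

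The proteases of the BMP1 and tolloid family, which free latent myostatin by cutting its propeptide, split in direction. Tll2 was higher with F/R/C, at 16.1, 16.5 and 6.67 CPM on day 10 against 0.278, 1.14 and 1.29 CPM with MyoD alone (3.84 ± 0.67 on day 10, adjusted p = 4.5e-05; 3.76 ± 0.31 on average, adjusted p = 5.5e-12). Tll1 was lower, at 5.49, 2.53 and 2.65 CPM on day 10 against 220, 91.6 and 102 CPM (-5.27 ± 0.69 on day 10, adjusted p = 1.4e-06; -3.69 ± 0.29 on average, adjusted p = 2.0e-12), and was not called on day 2 (-1.12 ± 0.58, adjusted p = 0.256). Of the 4 signal transducers (Smad2, Smad3, Smad4 and Zfyve9) none was called; their log2 fold changes lay between -0.71 and 0.22. The type I receptor gene Tgfbr1 (1.12 ± 0.11) and the co-receptor gene Tgfbr3 (1.57 ± 0.34) were higher, as was Dcn (3.38 ± 0.62), the gene of decorin, a matrix protein that binds TGF-beta and myostatin and is also on the fibroblast list. These 3 complete the 4 genes that were higher and were named after their values were seen.

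**Figure D4:**
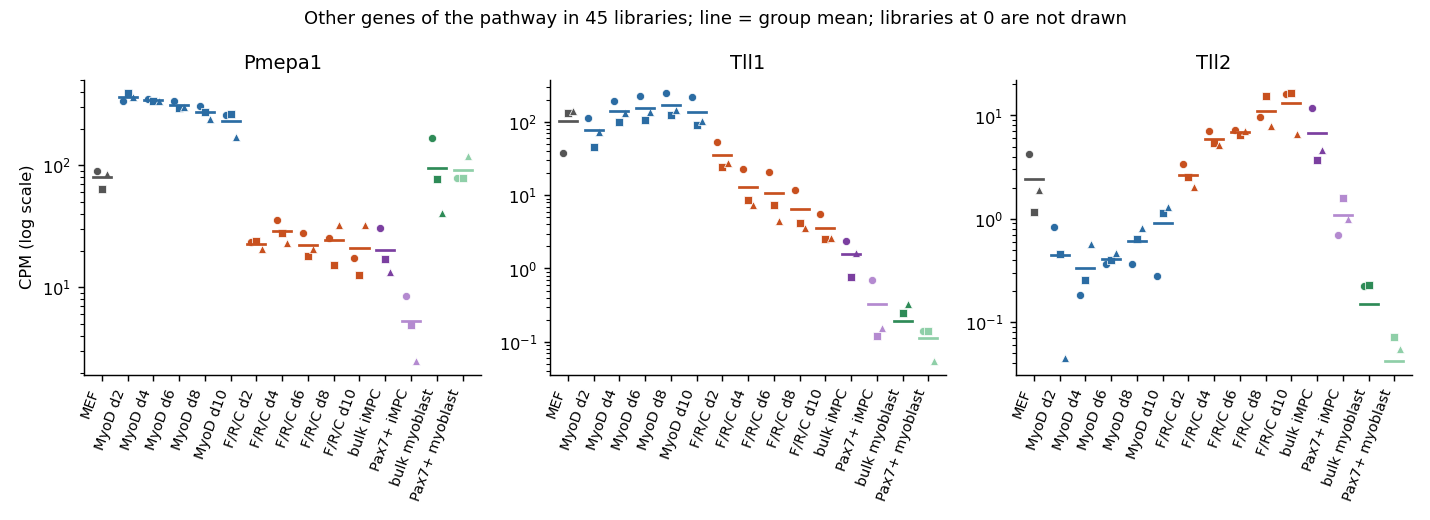
Pmepa1, Tll1 and Tll2 in CPM (log axes) in each library; circles, squares and triangles are replicates 1, 2 and 3, lines are group means, and libraries at 0 are not drawn. Pmepa1 is lower in all F/R/C libraries than in all MyoD-alone libraries of the same day and Tll2 is higher, while Tll1 overlaps on day 2 and is lower from day 4 on.

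Change over time was tested within each arm. With MyoD alone, none of the 9 genes was called between day 2 and day 10 by edgeR (6.26% of all genes were); 1 had an unadjusted p under 0.05 and DESeq2 called 1. That gene is Acvr2b (1.22 ± 0.44, adjusted p = 0.0704), which had 2.43, 1.95 and 3.51 CPM on day 2 and 4.21, 8.52 and 5.72 CPM on day 10. Libraries with the same replicate number deviated alike on these days, and with the replicate as a block Acvr2b was called (adjusted p = 0.0390). With F/R/C, 3 of 9 were called (16.0% of all genes). Acvr2b rose, from 1.83, 3.28 and 3.41 CPM to 6.16, 10.1 and 12.6 CPM (1.76 ± 0.44, adjusted p = 3.8e-03). Inhba fell (-2.11 ± 0.72, adjusted p = 0.0276), as did Fst (-3.19 ± 0.96, adjusted p = 0.0130). The call for Fst was lost without F/R/C day 10 replicate 2 (adjusted p = 0.0817), and that for Inhba without F/R/C day 2 replicate 1 (0.126) or day 10 replicate 2 (0.157) or 3 (0.107), or with no filter (0.0508). Without F/R/C day 10 replicate 3, Acvr1b was called too (-1.07, adjusted p = 0.0156). Over the same days the summed markers of dividing cells with F/R/C went from 301 to 424 CPM to 341 to 755 CPM, and their part in these results was not tested.

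Whether the difference between the arms changed from day 2 to day 10 was tested directly. It did for Fst, by -4.57 ± 1.30 on the log2 scale (adjusted p = 0.0267), which was 1 of 9 genes (6.01% of all genes). The call was lost in 6 of the 12 leave-outs, with adjusted p from 0.0516 to 0.103: without MyoD-alone day 2 replicate 2 or 3, F/R/C day 2 replicate 1, MyoD-alone day 10 replicate 3, or F/R/C day 10 replicate 1 or 2. For Inhba the value was -2.90 ± 1.00 (adjusted p = 0.0615), and it was called by DESeq2 (adjusted p = 0.0301) and without F/R/C day 10 replicate 1 (-3.46, adjusted p = 0.0491). It was also called with the replicate block (adjusted p = 0.022) and with only these groups in the fit (0.0223). Over all alternatives its adjusted p reached 0.192. For Inhbb, whose difference was early, the change was -2.76 ± 1.18 (adjusted p = 0.134) and was not shown.

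The arms were also set against the untreated MEFs; these comparisons share the 3 MEF libraries and are not independent. On day 2, 1 of 9 genes was called with MyoD alone (22.4% of all genes) and 2 with F/R/C (20.4%). Inhbb fell with MyoD alone (-2.99 ± 0.89, adjusted p = 8.5e-03), from 73.2, 232 and 265 CPM in MEFs to the 20.2 to 29.2 CPM given above, and had a log2 fold change of -0.48 ± 0.82 (adjusted p = 0.688) with F/R/C. Acvr2a rose with F/R/C (1.27 ± 0.27, adjusted p = 4.8e-04) from 34.0, 29.3 and 33.3 CPM, as did Acvr2b (1.16 ± 0.45, adjusted p = 0.0472), although the Acvr2b groups overlapped and the call was lost without MEF replicate 2 or 3 or F/R/C replicate 2 or 3 (adjusted p 0.098 to 0.213). This Acvr2b call was also lost with no filter (adjusted p = 0.0665), with the replicate block (0.0538) and with only these groups in the fit (0.101). Fstl3, not called with F/R/C (-1.09 ± 0.44, adjusted p = 0.0546), was called without MEF replicate 1 (-1.30, adjusted p = 0.0367) or F/R/C replicate 1 (-1.30, adjusted p = 0.0484), and Acvr2b was called with MyoD alone without MEF replicate 1 (1.48, adjusted p = 0.0311).

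On day 10, 3 of 9 genes were called with MyoD alone (18.9% of all genes) and 7 with F/R/C (34.8%). In the MyoD-alone libraries Acvr2b (2.27 ± 0.46, adjusted p = 3.2e-04) and Fstl3 (1.25 ± 0.44, adjusted p = 0.0305) rose and Inhbb fell (-2.28 ± 0.86, adjusted p = 0.0430); the Inhbb groups overlapped. The Fstl3 call was lost without MEF replicate 1 (adjusted p = 0.127) or 2 (0.0663) or MyoD-alone replicate 1 (0.12) or 2 (0.0598), and the Inhbb call without MEF replicate 2 (0.0946) or 3 (0.106) or MyoD-alone replicate 1 (0.117) or 2 (0.201). The Inhbb call was also lost with no filter (0.0591) and with only these groups in the fit (0.0816). With F/R/C, Acvr2a (1.74 ± 0.27) and Acvr2b (2.91 ± 0.47) rose. Inhba (-2.32 ± 0.72), Inhbb (-2.53 ± 0.87), Fst (-4.06 ± 0.99), Fstl3 (-1.91 ± 0.45) and Fstl1 (-1.84 ± 0.53) fell, with adjusted p from 7.1e-04 to 0.0144. Without F/R/C replicate 2 the calls for Inhba and Inhbb were lost (adjusted p = 0.0617 and 0.0843), and without MEF replicate 3 that for Inhba (0.0585); without F/R/C replicate 3, Acvr1b was called too (-1.16, adjusted p = 3.0e-03). Fibroblast markers also fell in sum with F/R/C, from at least 10398 CPM in MEFs to at most 4704 CPM, and their part was not tested.

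Bulk iMPCs had 381, 267 and 287 CPM of Mstn, a range that overlapped that of F/R/C day 10. Against F/R/C day 10, 1 of 9 genes was called (9.57% of all genes): Acvr2b was lower, at 3.28, 2.06 and 4.62 CPM (-1.53 ± 0.44, adjusted p = 0.0116), a call lost without bulk iMPC replicate 2 (-1.30, adjusted p = 0.0664). Without F/R/C day 10 replicate 3, Acvr1b was called as well (1.21, adjusted p = 6.6e-03). Fst, not called (2.45 ± 0.93, adjusted p = 0.0582), was called without bulk iMPC replicate 1 (2.95, adjusted p = 0.0346) or 3 (2.97, adjusted p = 0.0258). Without bulk iMPC replicate 2, which had 189 CPM of Fst, the value turned to -0.21 (adjusted p = 0.907), so the difference rested on that library.

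Against MEFs, 7 of 10 genes were called in bulk iMPCs (35.5% of all genes), and here Mstn was tested because none of these libraries chose it. Bulk iMPCs were also kept in F/R/C medium, so tests of Mstn in them are not independent of that choice. Mstn was higher by 7.93 ± 1.17 on the log2 scale (adjusted p = 1.3e-06) with no overlap; without MEF replicate 1, which held nearly all the MEF reads, the value was 12.43. That MEF library also had the highest differentiation markers of the 3 (149 CPM, against 51.7 and 73.4 CPM). Acvr2a (1.40 ± 0.27) and Acvr2b (1.38 ± 0.45) were higher, and Inhba (-1.68 ± 0.71), Inhbb (-3.11 ± 0.89), Fstl3 (-1.22 ± 0.44) and Fstl1 (-1.51 ± 0.53) were lower, with overlap for Inhba only. The calls for Mstn, Acvr2a and Inhbb held in every leave-out, whereas each of the other 4 was lost in 2 to 4 of the 6 (MEF replicates 2 and 3 and all 3 bulk iMPC libraries among them; adjusted p 0.0514 to 0.225), down to 3 genes called without bulk iMPC replicate 3 and 4 without MEF replicate 3. The 35.5% of all genes is from the fit with every library. With only these groups in the fit, Inhba (adjusted p = 0.124) and Acvr2b (0.0631) were not called, nor was Inhba with no filter (0.08).

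Bulk iMPC replicate 2 stood apart from replicates 1 and 3 in several members. It had 189 CPM of Fst (13.6 and 8.90 CPM in the others), 128 CPM of Inhba (27.0 and 19.2 CPM) and 488 CPM of Fstl1 (248 and 229 CPM). Its fibroblast markers were also the highest, at 3743 CPM against 2114 and 2165 CPM, with Dcn at 511 CPM against 23.5 and 19.5 CPM. In the time course, however, Dcn was higher with F/R/C while the summed fibroblast markers ranged lower, so Dcn alone does not stand for the list. Without it, Fst was lower in bulk iMPCs than in MEFs (-4.20, adjusted p = 8.8e-04), against -1.61 ± 0.90 (adjusted p = 0.128) with it.

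Against bulk myoblasts, 3 of 10 genes were called in bulk iMPCs (19.6% of all genes), all higher. Mstn had 75.3, 31.9 and 5.13 CPM in bulk myoblasts and was higher in iMPCs by 3.06 ± 0.91 (adjusted p = 9.4e-03), with no overlap. In these myoblast libraries the level of Mstn followed the order of the differentiation markers (29803, 15747 and 1051 CPM), and their part in the spread was not tested. Inhba had 10.2, 6.56 and 5.71 CPM in bulk myoblasts (2.96 ± 0.75, adjusted p = 2.8e-03) and Fstl1 107, 78.7 and 107 CPM (1.72 ± 0.53, adjusted p = 0.0125). Both calls were lost without bulk iMPC replicate 2 (Inhba 1.64, adjusted p = 0.0831; Fstl1 1.30, adjusted p = 0.0813), and without it Fst turned from 0.16 to -2.49 (adjusted p = 0.0422). Acvr1b, at 0.94, passed the minimum fold without bulk iMPC replicate 2 (1.08, adjusted p = 0.022) or myoblast replicate 1 (1.20, adjusted p = 0.0147). Gdf11 was called lower without myoblast replicate 3 (-1.004, adjusted p = 3.8e-03), and Fstl3 without myoblast replicate 2 (-1.11, adjusted p = 0.0448). With only these 2 groups in the fit, Fstl1 alone was called and the adjusted p of Mstn was 0.0742.

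Sorting for Pax7-GFP gave another picture. The 6 sorted libraries were quantified with other fragment length settings than the rest, as their effective lengths show, so sorting and that setting cannot be told apart where sorted and bulk libraries are compared. Sorted iMPCs had low differentiation markers (782 to 1476 CPM) and high markers of dividing cells (1471 to 1794 CPM), and sorted myoblasts 4144 to 14343 CPM and 379 to 730 CPM.

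Between sorted iMPCs and sorted myoblasts, 4 of 10 genes were called (30.0% of all genes). Both type II receptor genes were higher in iMPCs. Acvr2a had 74.6, 127 and 142 CPM in iMPCs and 40.8, 44.5 and 46.4 CPM in myoblasts (1.38 ± 0.27, adjusted p = 9.4e-05). Acvr2b had 12.8, 8.89 and 15.7 CPM in iMPCs and 2.29, 3.18 and 1.41 CPM in myoblasts (2.43 ± 0.45, adjusted p = 4.9e-05). Neither pair of groups overlapped.

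Fstl1 was higher too, at 682, 309 and 264 CPM against 47.7, 163 and 30.7 CPM (2.38 ± 0.55, adjusted p = 5.7e-04). Fstl3 was lower, at 1.08, 0.525 and 0.620 CPM against 5.15, 15.9 and 16.1 CPM (-4.05 ± 0.53, adjusted p = 2.6e-07). Mstn was not called (1.44 ± 0.87, adjusted p = 0.175), at 63.9, 19.4 and 20.4 CPM against 4.45, 1.02 and 33.2 CPM. It was called without sorted myoblast replicate 3 (3.65, adjusted p = 3.5e-03), the sorted myoblast library with the most differentiation markers. Without sorted iMPC replicate 1, 7 genes were called, as Inhbb (-3.30, adjusted p = 5.9e-03), Acvr1b (-1.23, adjusted p = 7.9e-03) and Fst (-3.48, adjusted p = 0.0204) were added. The 30.0% of all genes is from the fit with every library, and the share without this library is not given here.

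The labels do not say whether the sorted cells came from the bulk cultures profiled. Against bulk iMPCs, sorted iMPCs differed in 6 of 10 genes (30.3% of all genes), where the median over all genes was itself -0.13. Acvr2b was higher (1.91 ± 0.44, adjusted p = 6.4e-04). Mstn (-3.17 ± 0.91, adjusted p = 4.7e-03), Inhba (-3.34 ± 0.77, adjusted p = 6.2e-04), Acvr1b (-1.55 ± 0.34, adjusted p = 4.3e-04), Fst (-4.68 ± 1.05, adjusted p = 4.7e-04) and Fstl3 (-3.53 ± 0.52, adjusted p = 2.4e-06) were lower. Fst had 6.59, 1.45 and 0.103 CPM in sorted iMPCs, the last value being 2 reads. The Fst call rested on bulk iMPC replicate 2 (-1.98 without it, adjusted p = 0.0654), and was lost with only these groups in the fit (adjusted p = 0.0637). Without sorted iMPC replicate 1, Gdf11 (-1.05, adjusted p = 5.4e-03) and Inhbb (-3.25, adjusted p = 6.4e-03) were called as well. Differentiation markers were 18037 to 24399 CPM in the bulk libraries, and their part in these differences was not tested.

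Sorted myoblasts differed from bulk myoblasts in 1 of 10 genes (6.23% of all genes). Gdf11 was lower, at 25.8, 19.8 and 36.2 CPM against 124, 103 and 38.5 CPM (-1.70 ± 0.29, adjusted p = 3.3e-04), and was not called with only these 2 groups in the fit (adjusted p = 0.431). Fst, not called (-2.77 ± 0.95, adjusted p = 0.0511), was called without bulk myoblast replicate 3 (-3.30, adjusted p = 0.022). Mstn, not called (-1.56 ± 0.87, adjusted p = 0.255), was called without sorted myoblast replicate 3 (-3.75, adjusted p = 0.0136).

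The difference between sorted and bulk libraries was itself compared between iMPCs and myoblasts, and 6 of 10 genes were called (24.1% of all genes). It was more positive in iMPCs for Acvr2b (2.25 ± 0.62, adjusted p = 5.5e-03), Acvr2a (1.05 ± 0.38, adjusted p = 0.0299) and Gdf11 (1.06 ± 0.40, adjusted p = 0.0394). It was more negative for Fstl3 (-3.29 ± 0.67, adjusted p = 4.0e-04), Acvr1b (-1.71 ± 0.48, adjusted p = 6.4e-03) and Inhba (-3.27 ± 1.03, adjusted p = 0.0143). The calls for Acvr2b, Acvr1b and Fstl3 held in all 12 leave-outs. That for Inhba was lost without bulk iMPC replicate 2 (-1.91, adjusted p = 0.139) and with only these groups in the fit (adjusted p = 0.0913). Those for Gdf11 and Acvr2a stood at the minimum fold and were lost in 7 and 6 leave-outs respectively, with log2 values from 0.66 to 1.03, and Inhbb was called without sorted iMPC replicate 1 (-3.03, adjusted p = 0.0436). The calls for Gdf11 and Acvr2a were also lost with the replicate block and with only these groups in the fit, and that for Gdf11 with no filter.

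**Figure D5:**
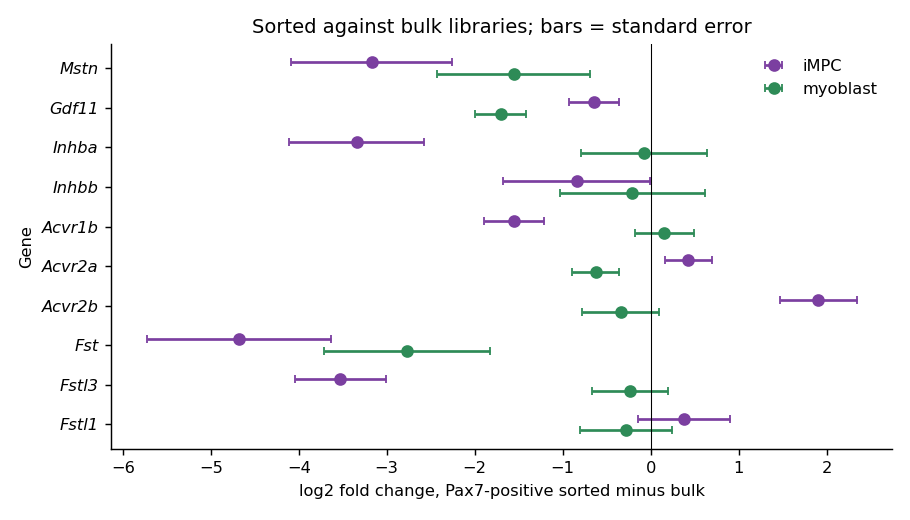
Log2 fold change between sorted Pax7-GFP-positive and bulk libraries for the 10 genes, in iMPCs and in myoblasts; points are edgeR estimates and bars are standard errors. Acvr2b lies at 1.91 in iMPCs and -0.34 in myoblasts, and Fstl3 at -3.53 and -0.24.

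Of the 24 pathway genes tested, 6 were higher and 3 lower in sorted iMPCs than in sorted myoblasts, where 30.0% of all genes were called in either direction. Dcn (5.21, adjusted p = 0.011) and Tll2 (4.58, adjusted p = 9.7e-05) were the highest of these, and Pmepa1 (-4.11, adjusted p = 7.4e-09) and Skil (-2.36, adjusted p = 1.7e-08), a feedback repressor of SMADs, the lowest. Pmepa1 had 8.49, 4.89 and 2.48 CPM in sorted iMPCs and 78.0, 78.1 and 119 CPM in sorted myoblasts. Dcn had 32.2 CPM in sorted iMPC replicate 1 and 0.970 and 2.17 CPM in replicates 2 and 3, so 1 library held most of it.

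The genes whose level over the 15 group means was most like that of Mstn, by Pearson's r of mean log2 CPM, were Ppp1r27 (r = 0.96), Otogl (r = 0.95), Vash2 (r = 0.95), Ppp1r14c (r = 0.95) and Stard7 (r = 0.94). Their group means ranged from 0.0155 to 43.1 CPM for Ppp1r27 and from 48.7 to 238 CPM for Stard7. For Fst they were Tm4sf1 (r = 0.98), Sipa1l1 (r = 0.97), Nrp1 (r = 0.97), Ptgs2os (r = 0.97) and Metrnl (r = 0.97), each with its highest mean in MEFs. The 15 points are not independent, since those of the time course share the MEF source, so these values only describe the pattern.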

How the data were processed

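The members and all gene lists were chosen with earlier results of these data known. RNA was measured with stranded poly-A libraries, per the labels' protocols. The submitters' processing notes name bcl2fastq 2.19, Trimmomatic 0.36, kallisto 0.44, edgeR 3.28 and GRCm38.p6; the transcript release, settings and strand option are not given in the sources used here. The authors deposited estimated counts (not normalised) and TPM (scaled to length and a fixed sum) per transcript, per the file headers.

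Of 121843 transcripts, 121104 matched GENCODE M21; their estimated counts were summed to 35675 genes and rounded. Totals were 15.6 to 36.3 M reads (median 22.1 M); reads are not independent molecules. Inhba had fractional sums in all 45 libraries, Fstl1 in 41, Acvr1b in 28, Fst in 15 and Mstn in 8, so some of their reads were shared with other genes. Effective transcript lengths imply a fragment setting near 152.81 bases in unsorted and 180.03 bases in sorted libraries (medians). The quasi-likelihood test of edgeR 4.0.16 (R 4.3.3; TMM, filterByExpr, 17325 genes, 1 coefficient per group, 30 residual degrees of freedom, tested on simulated data) was run on the 45 libraries; p-values were adjusted by Benjamini and Hochberg over all genes, in 20 comparisons. A gene was called at an adjusted p under 0.05 and a log2 fold change of at least 1 in size. SEs come from the fold change and the F statistic. CPM use TMM sizes, and log2 CPM use a prior count of 2. Fold changes use the default prior count of edgeR's fit. All members are named; of the pathway list, the 4 called genes with the largest changes in the comparisons described, of which 1 is not reported here; for likeness, the 5 genes with the highest r.

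Pairing by replicate number was checked through the correlation of deviations from group means: it was over 0.1 in every pair on days 2, 4 and 6 of the 2 arms (0.223 to 0.375) and between MyoD-alone days 2 and 10 (0.201 to 0.416), and not elsewhere. Replicates differed by more than sampling noise (chi-square per degree of freedom at least 28.2). Alternatives were RLE factors, no filter, unrounded counts, only the groups compared, no minimum fold, a replicate block, DESeq2 1.42.0 and leaving out each library. The block fits a common replicate effect over all groups other than myoblasts, and a separate one over the myoblast groups. Proteins and the Fst promoter are not analysed here.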

Additional observations from a re-analysis of the deposited data

Results flagged for a closer look

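Results are listed here where the same contrast differed between 2 settings by a direct test (edgeR's interaction term, adjusted over all genes). The difference of Fst between F/R/C and MyoD alone changed by -4.57 on the log2 scale from day 2 to day 10; all 3 F/R/C libraries were lower than all 3 MyoD-alone libraries on day 10, and the groups overlapped on day 2. The difference between sorted and bulk libraries was more positive in iMPCs than in myoblasts for Acvr2b by 2.25, for Gdf11 by 1.06 and for Acvr2a by 1.05. It was more negative in iMPCs for Fstl3 by -3.29, for Inhba by -3.27 and for Acvr1b by -1.71. The fragment setting read from the effective lengths was the same in both sorted groups (180.03 bases).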

How the results depend on the processing

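The count of members called moved by over 1.5 times in these cases. The shares of all genes given above are from the main fit, and those under these settings are not given here. Whether the members moved more than other genes can therefore not be read from these counts. Without the minimum fold it was 8 for the average of the days and 2 for MyoD alone day 2 against MEFs. With the replicate block it was 2 on day 2, 2 for the change of the difference from day 2 to day 10, 1 for MyoD alone day 10 against day 2, 2 for MyoD alone day 2 against MEFs and 2 for bulk iMPCs against F/R/C day 10. Only the groups compared gave 2 on day 2, 2 for the change of the difference, 3 for MyoD alone day 2 against MEFs, 1 for bulk iMPCs against myoblasts, 0 for sorted against bulk myoblasts and 3 for the sorting contrast. DESeq2 gave 2 on day 2, 2 for the change of the difference, 1 for MyoD alone over time, 4 for F/R/C day 2 against MEFs, 2 for bulk iMPCs against F/R/C day 10 and 2 for sorted against bulk myoblasts; no filter gave 1 for F/R/C day 2 against MEFs. Leaving out single libraries gave 0 to 1 on day 2, 0 to 1 for the change of the difference, 1 to 3 for F/R/C over time, 1 to 2 for MyoD alone day 2 and 1 to 3 for day 10 against MEFs, 1 to 3 for F/R/C day 2 against MEFs, 0 to 2 for bulk iMPCs against F/R/C day 10, 3 to 7 for bulk iMPCs against MEFs, 4 to 7 between sorted iMPCs and sorted myoblasts, 1 to 2 for sorted against bulk myoblasts and 3 to 6 for the sorting contrast. The cause was not tested.

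Of single gene results, 1451 kept direction and side of the thresholds, 91 lost and 65 gained a call, and 4 turned sign, all for Fst in bulk iMPCs: against bulk myoblasts (0.16) without bulk iMPC replicate 2 (-2.49) or myoblast replicate 1 (-0.017) or 3 (-0.365), and against F/R/C day 10 (2.45) without bulk iMPC replicate 2 (-0.215), where the leave-outs ranged from -0.215 to 3.045. Over the 5 days, 13 of 15 F/R/C libraries correlated best with the MyoD-alone library of their own replicate number, a hint from the data and not the design; the replicate block moved no other count by over 1.5 times. Mstn in MEF replicates 2 and 3, at 1 read each, is at the limit of detection.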
